A study of Mus musculus with 12 samples.

Results

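Cytosolic ribosomal protein genes encode the proteins that assemble with ribosomal RNA into the large and small subunits of the ribosome. Members were chosen by symbol alone: Rpl or Rps with a number and, for some, a letter, together with Rplp0, Rplp1, Rplp2 and Rpsa, without pseudogenes, Rps6k kinases or Rps27l. This gave 77 of the 23022 listed genes, 46 for the large and 31 for the small subunit. The gene ID listed with Rpl24 belongs to Zbtb11 in the GENCODE M21 annotation, so the identity of this member is uncertain. Its sequence features were taken from another gene ID. All 77 had a level of at least 1 TPM (transcripts-per-million) in at least 3 libraries, the filter that 11663 genes passed.

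Poly(A)-selected RNA was sequenced from B16-F10 cells, a mouse melanoma line, to ask how loss of the RNA-binding splicing regulators Mbnl1 and Mbnl2 alters the response to interferon gamma (IFNγ). All cells came from 1 Cas9-expressing single-cell clone. The double knockout (DKO) was a polyclonal population transduced with a lentivirus carrying paired guides against Mbnl1 and Mbnl2, and the control (NTC, which the labels spell out as no template control) carried non-targeting guides. Both genotypes were left untreated or given 1 ng/mL IFNγ for 24 h, with 3 libraries in each of the 4 conditions and 12 in all. No source states that replicates were separate cultures, so p-values measure the spread between libraries, which may be technical. TPM divides reads by transcript length, so levels can be set side by side between genes, but it keeps no record of depth. Differences below are on the log2(TPM + 1) scale, which understates changes of low genes, with limma's standard error (SE). A gene is called higher or lower at a Benjamini-Hochberg adjusted p under 0.05 over all 11663 genes tested.

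Ribosomal proteins are made in matched amounts and those not built into a ribosome are degraded. Most of their mRNAs begin with a C followed by a run of pyrimidines, the 5′ terminal oligopyrimidine (5′ TOP) motif, through which mTOR signalling and Larp1 set their translation. Their genes are among the most highly expressed in growing cells, and many have processed pseudogenes with nearly the same sequence.

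RefSeq promoter windows, each 250 bases before the start site and 300 bases long in build GRCm38.p6, were available for 57 of the 77 members. The start site was a C followed by 4 bases that are each C or T in 13 of these 57 (22.8%), against 813 of 27025 genes (3.01%). Such a run began within 5 bases of the start in 27 members (47.4%) and in 21.2% of all genes, and within 45 bases, a distance chosen after seeing the data, in 56 members (98.2%) and 78.3% of all genes. Windows of 30 bases are shown for 6 members whose values are described below, with the run of pyrimidines nearest the start in capitals.
Rps6: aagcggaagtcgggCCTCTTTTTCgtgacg
Rpl31: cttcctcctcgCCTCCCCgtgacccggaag
Rpl35a: gcggggcttgCCTTCCTCTTTCCgccatct
Rpl39: cctaagctccgCCTCTagcgacttcttcta
Rps21: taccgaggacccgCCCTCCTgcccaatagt
Rps2: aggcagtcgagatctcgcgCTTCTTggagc
These windows lie at chr4:86857353-86857382 (Rps6, minus strand), chr1:39367836-39367865 (Rpl31, plus strand), chr16:33056467-33056496 (Rpl35a, plus strand), chrX:37085208-37085237 (Rpl39, minus strand), chr2:180257364-180257393 (Rps21, plus strand) and chr17:24720048-24720077 (Rps2, plus strand). Rps6, Rpl35a and Rpl39 were each called higher in 1 comparison and lower in another, Rpl31 only higher, and Rps21 and Rps2 only lower, so both directions occurred among genes with such a run.

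For contrast, 3 members described below had no such run within 5 bases of the RefSeq start, which is the capital letter in their windows.
Rps16: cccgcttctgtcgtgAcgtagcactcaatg
Rps12: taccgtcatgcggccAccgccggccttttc
Rpl5: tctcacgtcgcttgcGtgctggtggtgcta
Their windows are at chr7:28350674-28350703 (Rps16, plus strand), chr10:23787195-23787224 (Rps12, minus strand) and chr5:107900513-107900542 (Rpl5, plus strand). Rps16 and Rps12 are among the lower and Rpl5 among the higher members with IFNγ in NTC cells.

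Motifs were searched in the whole windows. The Ets family letters CCGGAAG on either strand were in 24 of 57 members (42.1%) and 9.93% of all genes, and the Sp1 letters GGGCGG on either strand in 35 (61.4%) and 38.2%. Yy1 letters (AAGATGGC, either strand) were in 5 members (8.77%) and 3.19% of genes, the E-box CACGTG in 6 (10.5%) and 8.09%, and TATAAA, read as transcribed, in 5 (8.77%) and 9.77%. The Ets letters, in capitals and for Rps7 on the other strand, are shown in their surroundings for 4 members that were lower or higher in DKO than in NTC cells.
Rps3a: gattcttaaagCCGGAAGggcgaaagagc
Rps21: ctttctttgcaCCGGAAGcggaagttaaa
Rpl31: ctccccgtgacCCGGAAGttgtacggcta
Rps7: tttcagaagagCTTCCGGtttccacccac
They lie at chr3:86142660-86142688 (Rps3a, minus strand), chr2:180257280-180257308 (Rps21, plus strand), chr1:39367848-39367876 (Rpl31, plus strand) and chr12:28635950-28635978 (Rps7, minus strand). A match describes letters in a window and was not taken as a binding site.

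The edited genes were measured first, as a check of the labels. Mbnl1 was at 56.8, 57.0 and 55.6 TPM in untreated NTC cells, 60.5, 63.9 and 63.3 in treated NTC, 41.3, 41.1 and 44.0 in untreated DKO and 44.9, 42.7 and 47.5 in treated DKO. Mbnl2 was at 107, 99.2 and 101 TPM in untreated NTC cells, 107, 104 and 107 in treated NTC, 87.2, 90.2 and 90.0 in untreated DKO and 88.9, 83.9 and 98.0 in treated DKO. For both genes the 6 DKO libraries all lay under the 6 NTC libraries, but neither gene was near 0. Mbnl1 was lower in DKO cells by −0.41 (SE 0.05, adjusted p 2.54e-05) untreated and −0.47 (SE 0.05, adjusted p 8.12e-06) with IFNγ. The differences for Mbnl2 were −0.20 (SE 0.05, adjusted p 0.00937) and −0.23 (SE 0.05, adjusted p 0.00308). Each call held without any single library and on the 4 other library scales described below. Only the untreated Mbnl2 call was lost in an alternative, a scale set on the ribosomal protein genes themselves.

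The cell type label was checked against markers. All 7 melanocyte lineage genes (Tyr, Tyrp1, Dct, Mlana, Pmel, Sox10 and Mitf) were high in all 12 libraries, led by Tyrp1 with a median of 5171 TPM. Their summed level was 17554, 16647 and 16791 TPM in untreated NTC, 18049.7, 18136 and 18642 in treated NTC, 11124, 11277 and 11452 in untreated DKO, and 12414, 12319 and 12396 in treated DKO. DKO libraries were thus lower, and the part of this shift in the results below was not tested. The leukocyte genes Ptprc, Cd3e and Emr1, the endothelial gene Cdh5 and the epithelial genes Epcam and Krt5 were listed at 0 in every library. Leukocyte markers summed to at most 1.33 TPM and endothelial markers to at most 0.914 TPM. Fibroblast markers summed to 1.63 to 2.70 TPM in NTC and 3.38 to 4.24 TPM in DKO libraries, without overlap. The part of this fibroblast marker difference in the results below was not tested.

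Ribosomal protein genes made up a large share of the measured RNA. Of the 100 listed genes with the highest mean, 45 were members, as were 18 of the top 50 and 0 of the top 10. The mean level over the 12 libraries was 1000 TPM or more for 52 members, between 200 and 1000 TPM for 14 and under 200 TPM for 11, with a median of 1409 TPM. The highest were Rplp1 (3939 TPM), Rpl32 (3628 TPM), Rps2 (2773 TPM), Rps3a (2647 TPM) and Rpsa (2359 TPM). The lowest were Rps27 (18.5 TPM), Rps13 (30.6 TPM), Rpl5 (41.4 TPM), Rpl12 (61.2 TPM) and Rpl28 (72.1 TPM). Between the lowest and the highest library a member differed by 1.06 times (Rpl7a) to 4.61 times (Rps16), and 13 members exceeded 1.5 times.

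**Figure D1:**
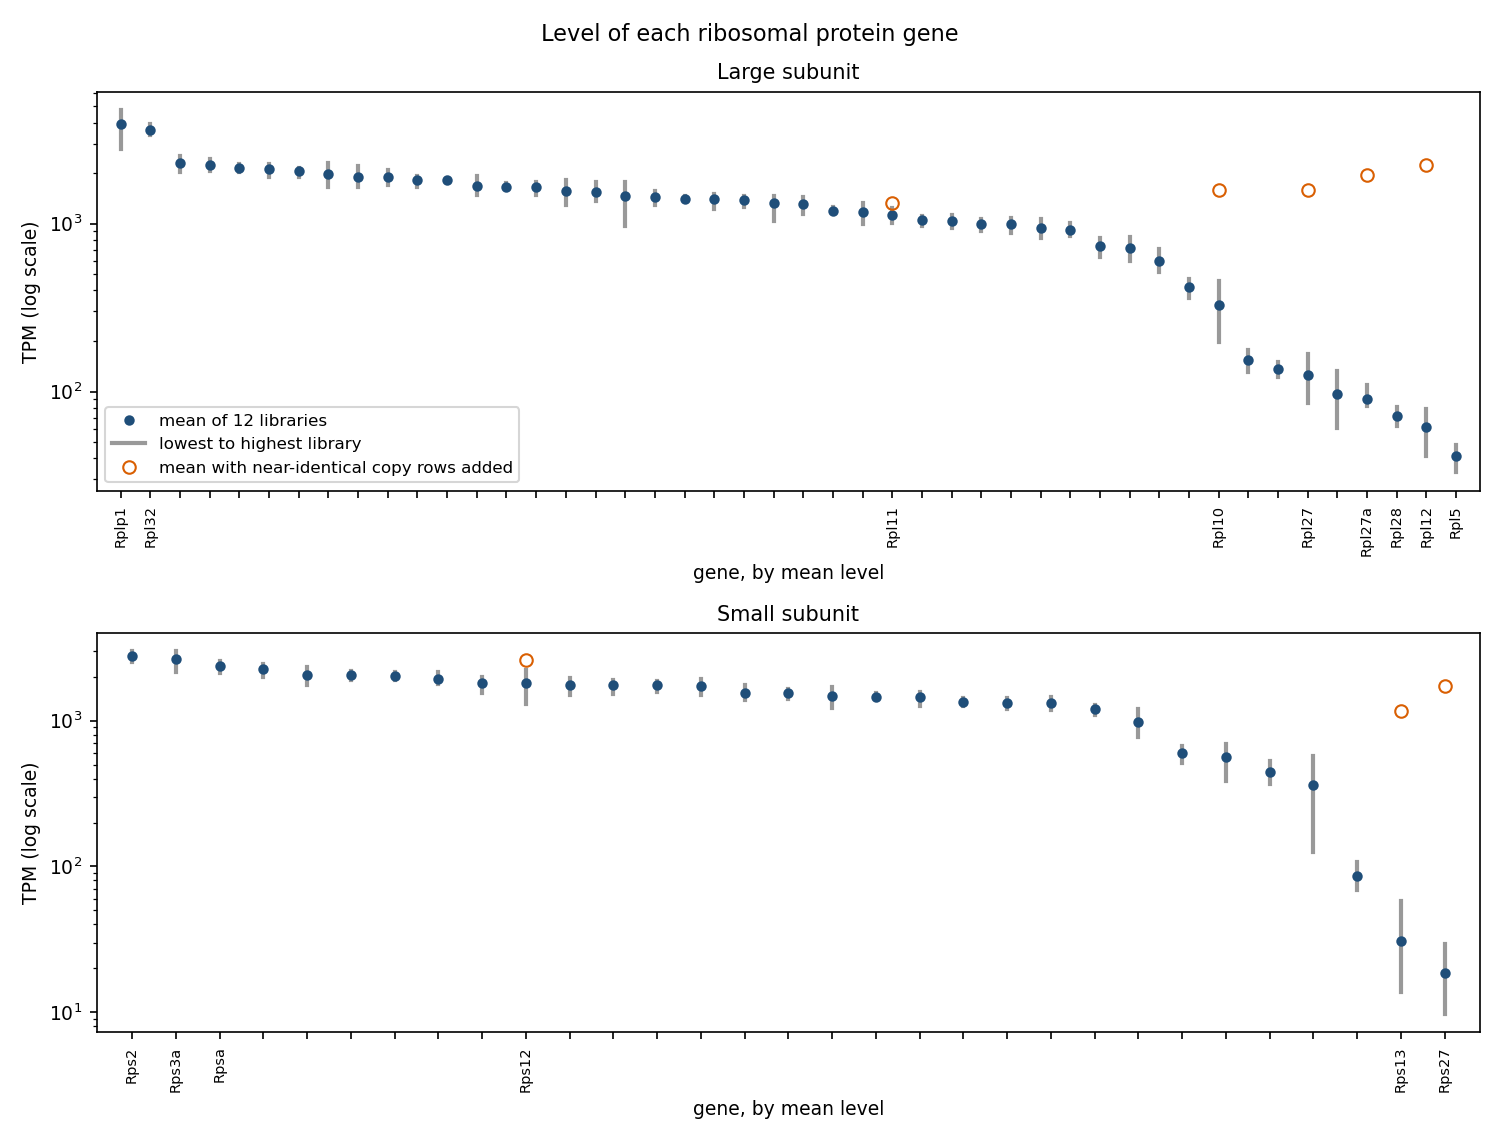
Mean TPM over the 12 libraries (filled points, log scale) of each large and small subunit gene, with bars from the lowest to the highest library and open points for the mean with near-identical copies added, labelled for the 5 highest, the 5 lowest and those with open points. Members ran from 18.5 TPM (Rps27) to 3939 TPM (Rplp1), and the 8 with open points included the lowest, Rps27 and Rps13.

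Near-identical copies bear on the low levels. At 95% identity or more over at least 80% of the coding sequence, 8 members had a copy that was listed separately at 10% or more of the member's level: Rpl10 (Rpl10-ps3), Rpl11 (Gm10288), Rpl12 (Gm10275), Rpl27 (Rpl27-ps3), Rpl27a (Gm7536), Rps12 (Rps12-ps3), Rps13 (Rps13-ps2) and Rps27 (Gm9846). Rps27, a zinc-finger protein of the small subunit, had 18.5 TPM against 1698 TPM for Gm9846. Rpl12, at the base of the stalk, had 61.2 TPM against 2171 TPM for its copy. Rpl10, which joins late in assembly, had 327 TPM against 1249.6 TPM for Rpl10-ps3. Reads of such pairs cannot be told apart with certainty, so single values of these 8 members are uncertain and are given again below with the copy added. All 11 members under 200 TPM had at least 1 annotated copy, and 6 of them, Rpl5, Rps6, Rpl28, Rpl10a, Rpl15 and Rpl31, had none listed at that level. The libraries were unstranded, so reads from overlapping or antisense genes were not separated either.

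The summed level of the 77 genes was 108748, 106527 and 109056 TPM in untreated NTC, 104064, 103256 and 102183 in treated NTC, 103939, 103040 and 103353 in untreated DKO, and 98961, 97145 and 96204 in treated DKO. Treated libraries lay below untreated ones in both genotypes with no overlap. DKO libraries lay below NTC libraries of the same treatment on this scale, but overlapped them with the same listed total. The sum was 4.57% lower with IFNγ in NTC cells (change −4.57%) and 5.81% lower in DKO cells (change −5.81%). With 3 libraries against 3 a two-sided exact permutation test cannot go below p = 0.1, so these sums are given as values. The listed genes of a library summed to between 805782 TPM (treated DKO replicate 2) and 874612 TPM (treated NTC replicate 2), lower in every DKO than in every NTC library, so the scale of the libraries bears on the sums.

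On other library scales the sum stayed lower with IFNγ, while its difference between DKO and NTC cells depended on the scale. With each library scaled to the same listed total, the change with IFNγ was −6.70% in NTC and −5.56% in DKO cells. It was −7.60% and −6.31% when the total of the other genes was made equal, −5.83% and −6.47% after median-ratio scaling, and −6.48% and −7.06% after upper-quartile scaling. The libraries did not overlap in any of these. DKO against NTC, the change was −4.32% untreated and −5.56% with IFNγ as deposited, but −0.898% and 0.309% with the same listed total, where libraries overlapped and the sign differed. It was −1.03% and 0.353% with the same total of the other genes, again overlapping. Median-ratio scaling gave −3.89% and −4.55%, without overlap, and upper-quartile scaling −1.57%, with overlap, and −2.19%, without. A scale set on the members themselves, added after seeing the data, removes any summed difference by construction.

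**Figure D2:**
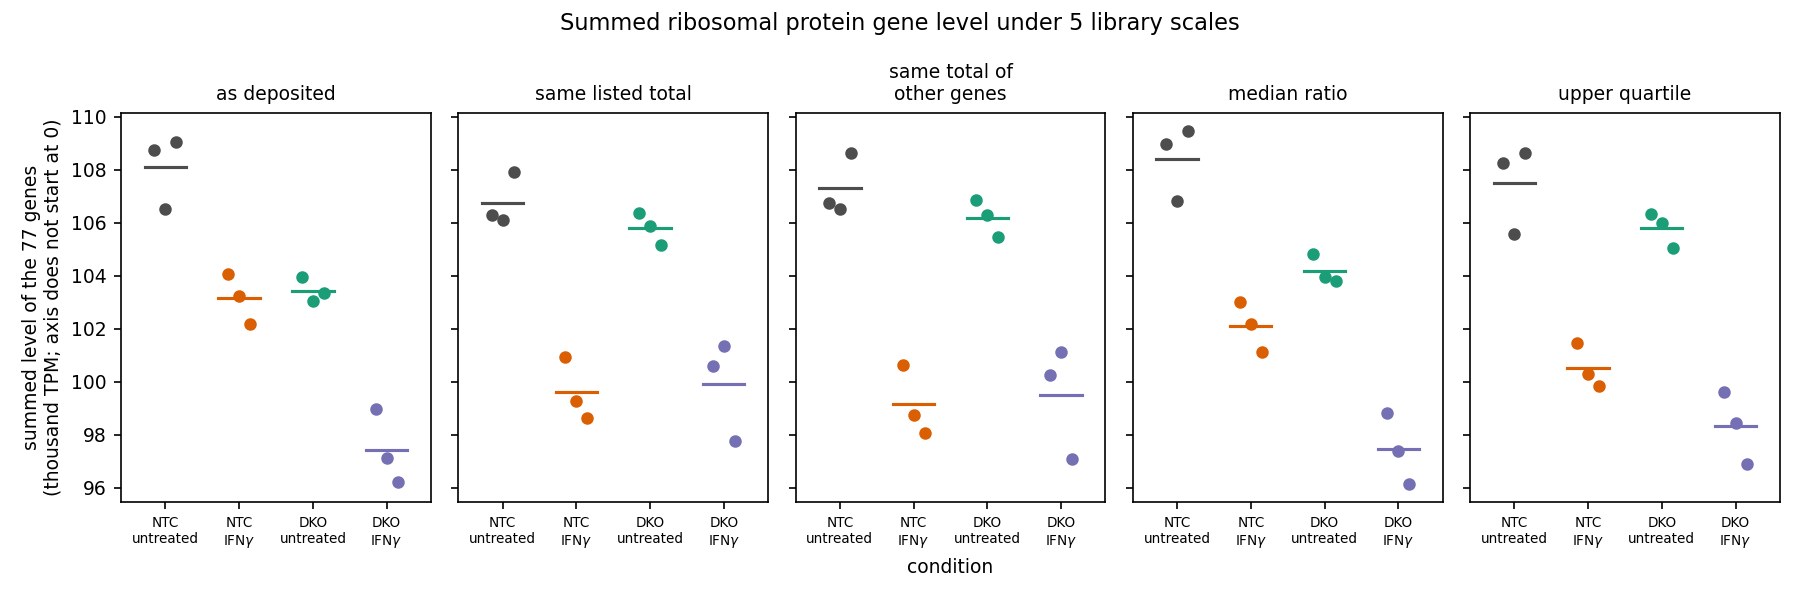
Summed TPM of the 77 genes in each library (points) with the mean of 3 (lines), in the 4 conditions, under 5 library scales, on an axis that does not start at 0. Treated libraries lay below untreated ones of their genotype in every panel, whereas the gap between DKO and NTC, −4.32% untreated as deposited, shrank to −0.898% with the same listed total and turned to 0.309% with IFNγ.

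As a share of the listed total the family took 12.6%, 12.6% and 12.8% in untreated NTC, 12%, 11.8% and 11.7% in treated NTC, 12.7%, 12.6% and 12.5% in untreated DKO, and 12%, 12.1% and 11.6% in treated DKO. Treated libraries were below untreated ones in both genotypes, and the genotypes overlapped within each treatment. Large subunit genes changed by −3.77% with IFNγ in NTC and −4.84% in DKO cells as deposited. Small subunit genes changed by −5.62% and −7.07%.

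The ratio of the large to the small subunit sum does not depend on the library scale. It was 1.311, 1.288 and 1.310 in untreated NTC, 1.333, 1.329 and 1.324 in treated NTC, 1.303, 1.298 and 1.309 in untreated DKO, and 1.330, 1.338 and 1.335 in treated DKO. Every treated library had a higher ratio than every untreated one, by 1.97% in NTC and 2.40% in DKO cells, and the genotypes overlapped within each treatment. With the copies of the 8 members added to them, a step chosen after seeing the data, untreated and treated NTC libraries overlapped (mean 1.35 untreated and 1.36 treated, a change of 0.582%). In DKO cells the ratio then went from 1.35 to 1.38 without overlap (2.34%), and with IFNγ DKO libraries were above NTC libraries (1.81%). The ratio in NTC cells thus separated the treatments for the members alone and not with the copies added, and in DKO cells in both.

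**Figure D3:**
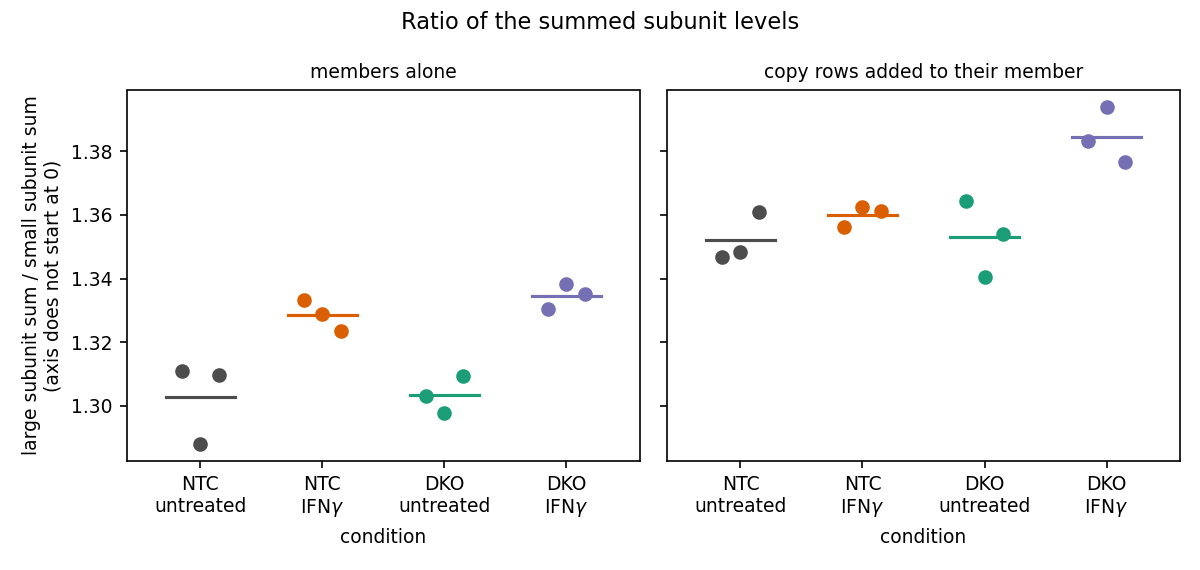
Ratio of the summed TPM of large to small subunit genes in each library (points) with the mean of 3 (lines) in the 4 conditions, for the members alone and with the copies added, on an axis that does not start at 0. For the members alone, ratios ran from 1.29 to 1.31 in untreated and 1.32 to 1.34 in treated libraries, and with copies added the NTC libraries overlapped.

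With IFNγ in NTC cells, 4 members were higher and 19 lower, 23 of 77, where 12.1% of all genes tested were called (853 higher and 558 lower). The members' median difference was −0.03 as deposited, against 0.02 for all genes, and on the 4 other scales members minus all genes stayed at −0.05. As deposited, 34 members were above 0 and 43 below. The split was 3 higher and 22 lower with the same listed total, 3 and 23 with the same total of the other genes or upper-quartile scaling, 3 and 20 with median-ratio scaling, and 20 and 12 on the scale set on the members, where their median was 0.04 against 0.08 for all genes and 24.2% of all genes were called. On the 4 other scales 9.98% to 10.7% of all genes were called. The higher share of all called genes was 60.5% as deposited and 36.6% to 48.8% on those scales. Of the large subunit genes 3 were higher and 8 lower as deposited, and of the small subunit genes 1 and 11. The large subunit split was 2 and 10 with the same total of the other genes or upper-quartile scaling and 2 and 9 with the same listed total. Libraries of the treated and untreated cells did not overlap for 45 members, which was not counted over all genes. limma gave an unadjusted p under 0.05 for 38 members and 3707 of all 11663 genes. The count of 23 moved with single libraries, as did the share of all genes: it was 15, 11 and 6 with untreated NTC replicate 1, 2 or 3 left out (8.69%, 3.38% and 2.98% of all genes), and 6 with treated NTC replicate 2 or 3 left out (2.87% and 2.74%). The split was 2 and 13, 2 and 9, and 1 and 5 in the former 3 fits and 1 and 5 in the latter. Without treated NTC replicate 1 it was 8 and 20 (14.1% of all genes). It was 9 and 20 without treated DKO replicate 2 (17.3%) and 9 and 22 without treated DKO replicate 3 (16.7%). A fit of the NTC libraries alone gave 7 and 16 (12.3%). The large subunit count of 11 was 7, 6 and 2 without untreated NTC replicate 1, 2 and 3, 17, 3 and 2 without treated NTC replicate 1, 2 and 3, and the small subunit count of 12 was 5 and 4 without untreated NTC replicate 2 and 3, and 3 and 4 without treated NTC replicate 2 and 3. Under all 5 scales 3 were higher (Rpl39, Rpl5 and Rps6) and 19 lower, and no member was called in both directions.

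**Figure D4:**
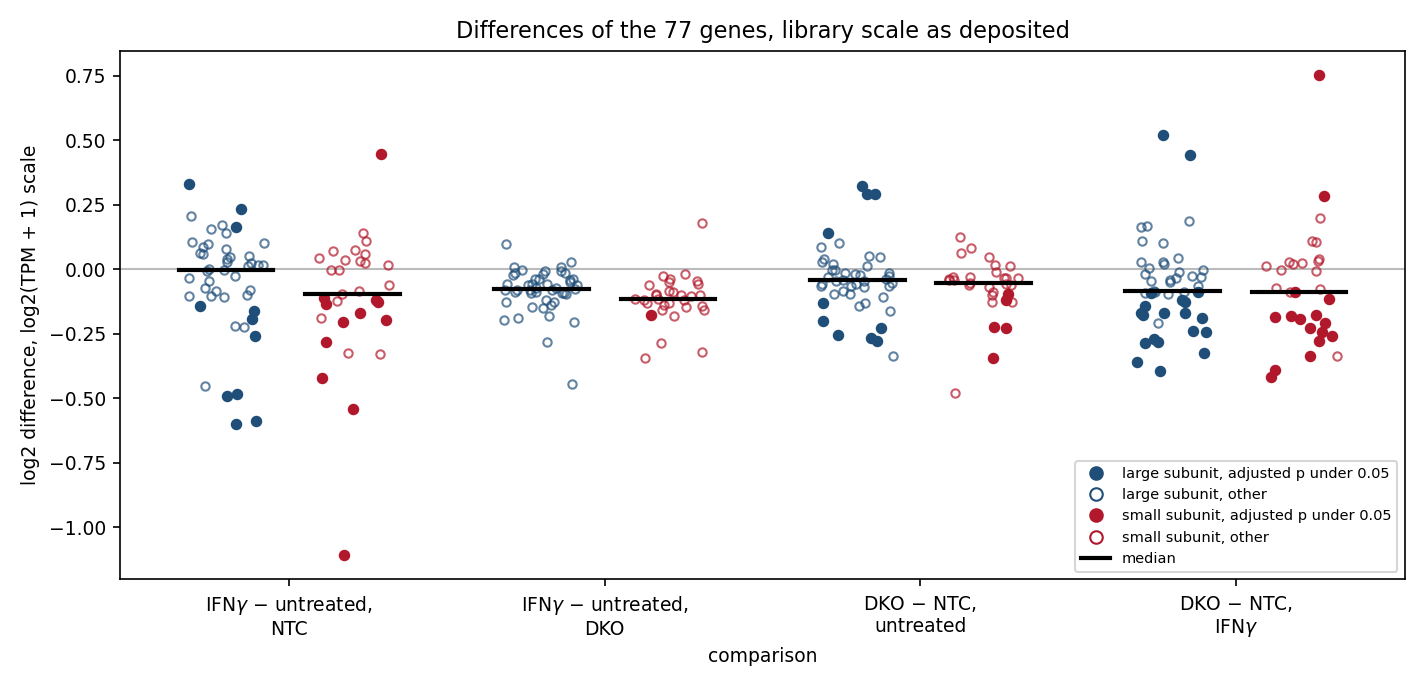
Log2 differences of the large (blue) and small (red) subunit genes in 4 comparisons as deposited, 1 point per gene, filled at an adjusted p under 0.05, with black lines at the medians. With IFNγ in NTC cells 4 members were called higher and 19 lower, where 12.1% of all genes were called. On the scale set on the members the split was 20 and 12 (24.2% of all genes). DKO against NTC with IFNγ, 4 were higher and 32 lower, where 43.3% of all genes were called. With the same listed total this became 12 and 17 (43.1%), and the higher share of all called genes went from 44.9% to 65.2%.

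Of 4 genes for the stalk, which recruits elongation factors to the large subunit, and its base, 2 were lower with IFNγ in NTC cells, where 12.1% of all genes were called. Rplp1, the most abundant member, was at 4344, 4742 and 4685 TPM in untreated NTC cells, 3783, 3359 and 2782 in treated NTC, 4539.5, 3747 and 4065 in untreated DKO and 3733, 4081 and 3409.6 in treated DKO. Every treated NTC library was below every untreated one, while the DKO groups overlapped. The difference in NTC cells was −0.48 (SE 0.10, adjusted p 0.0127), called in all alternatives and without any single library, and at −1283 TPM it was the largest single part of the family's net change of −4943 TPM. Rplp0, which anchors the stalk, was at 2272, 2265 and 2269 TPM in untreated NTC cells and 2051, 1950.1 and 1949 in treated NTC, and changed in NTC cells by −0.19 (SE 0.04, adjusted p 0.0151). That call was lost without untreated NTC replicate 3, or treated NTC replicate 2 or 3, with differences of −0.22 to −0.18 over the fits without 1 library. Rplp2 (1349, 1455 and 1414 TPM untreated, 1281, 1311 and 1037 treated) had a difference of −0.22 (SE 0.08, adjusted p 0.0698) and did not pass. Rpl12 had −0.45 (SE 0.15, adjusted p 0.0665) alone, and with Gm10275 added it was called, at −0.21, lower in 3 of 3 treated libraries.

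The 5S particle, in which Rpl5 and Rpl11 bind 5S ribosomal RNA, went the other way for Rpl5. Rpl5 was at 33.0, 40.2 and 34.8 TPM in untreated NTC cells, 45.5, 42.7 and 48.1 in treated NTC, 45.8, 43.3 and 46.1 in untreated DKO and 38.3, 35.7 and 43.8 in treated DKO. All 3 treated NTC libraries were above the untreated ones, and untreated DKO libraries were about as high. The difference with IFNγ in NTC cells was 0.33 (SE 0.08, adjusted p 0.0230). The call was lost with trends on GC content and length removed and without untreated NTC replicate 1 or 3, or treated NTC replicate 3, with values of 0.27 to 0.41. Rpl11 was at 1201, 1129.5 and 1186 TPM in untreated NTC cells and 1132, 1099 and 1053 in treated NTC, a difference of −0.10 (SE 0.05, adjusted p 0.236).

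Around the peptidyl transferase centre and the tunnel wall, 2 of 4 genes were lower (12.1% of all genes called). Rpl8, which lies at the interface near the centre, was at 2268, 2297 and 2276 TPM in untreated NTC cells, 2012, 1852 and 1860.5 in treated NTC, 1998, 1813 and 1876 in untreated DKO and 1784, 1909 and 1659.9 in treated DKO. Treated NTC libraries were below all untreated NTC libraries, and DKO libraries were below untreated NTC ones with either treatment. The difference with IFNγ in NTC cells was −0.26 (SE 0.05, adjusted p 0.0122), a call lost without treated NTC replicate 2 or 3 (−0.30 to −0.24). Rpl10 was at 300.4, 317 and 426 TPM in untreated NTC cells, 197, 209.5 and 281 in treated NTC, 457, 424 and 382 in untreated DKO and 292, 339 and 295 in treated DKO. Treated NTC libraries were lowest, with a spread inside each group of up to 68.0 TPM (SD). Its difference of −0.60 (SE 0.14, adjusted p 0.0184) was lost when Rpl10-ps3 was added (−0.00), and without untreated NTC replicate 3, or treated NTC replicate 2 (−0.75 to −0.44). Rpl3 and Rpl4 differed by −0.03 and 0.06 and were not called.

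At the rim of the exit tunnel, where nascent chains leave, 1 of 8 genes (12.5%) was higher, near the 12.1% of all genes called. Rpl39, a small protein of the tunnel, was at 1446, 1397 and 1445 TPM in untreated NTC cells, 1553, 1763 and 1726 in treated NTC, 1448, 1544 and 1609 in untreated DKO and 1542, 1358 and 1587 in treated DKO. Treated NTC libraries were above untreated ones, and the DKO groups overlapped. The difference was 0.23 (SE 0.06, adjusted p 0.0310). The call was lost with GC content and length trends removed, with no filter on low values, and without untreated NTC replicate 1, 2 or 3, or treated NTC replicate 2 or 3 (0.20 to 0.29). Rpl35a, a Diamond-Blackfan anaemia gene of the large subunit, was at 1177, 1157 and 1166 TPM in untreated NTC cells and 1266, 1332 and 1324 in treated NTC, higher by 0.16 (SE 0.05, adjusted p 0.0491) as deposited. It was not called under any of the 4 other scales (0.12 to 0.15), nor without untreated NTC replicate 1, 2 or 3, treated NTC replicate 2 or 3, untreated DKO replicate 2 or 3, or treated DKO replicate 1 (0.15 to 0.19).

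Among the 8 large subunit genes lower with IFNγ in NTC cells was Rpl36. Rpl36 was at 1603, 1758 and 1719.7 TPM in untreated NTC cells, 1447, 1253 and 964 in treated NTC, 1705, 1396 and 1509 in untreated DKO and 1392, 1459 and 1210.2 in treated DKO. Treated NTC replicate 3 was the lowest of the 12, and all treated NTC libraries were below the untreated ones. The difference was −0.49 (SE 0.12, adjusted p 0.0229), lost without untreated NTC replicate 2 or 3, or treated NTC replicate 2 or 3 (−0.62 to −0.33). Rpl10a, on the L1 stalk that moves with the exiting tRNA, was at 120.3, 132 and 121 TPM in untreated NTC cells and 114, 80.5 and 60.6 in treated NTC. Its difference of −0.59 (SE 0.17, adjusted p 0.0429) was lost without untreated NTC replicate 1, 2 or 3, treated NTC replicate 2 or 3, untreated DKO replicate 3, or treated DKO replicate 1 (−0.82 to −0.37), with no filter on low values, in a fit of the NTC libraries alone and with GC content and length trends removed. Rpl13a, known for a translation-silencing complex formed after IFNγ, was at 2092, 2041 and 2100.3 TPM in untreated NTC cells, 1909, 1897 and 1772 in treated NTC, 1920.4, 1899 and 1872 in untreated DKO and 1754, 1791 and 1700.3 in treated DKO. Treated libraries were below untreated ones in both genotypes. In NTC cells Rpl13a changed by −0.16 (SE 0.04, adjusted p 0.0178), a call lost without untreated NTC replicate 3, or treated NTC replicate 3 (−0.18 to −0.13) and on the scale set on the members.

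In the small subunit, the proteins at the mRNA entry channel were Rps2, Rps3 and Rps9. Rps2 was at 2979, 2991 and 2949 TPM in untreated NTC cells, 2579, 2567 and 2588 in treated NTC, 2959, 2846 and 2919 in untreated DKO and 2673, 2703 and 2527 in treated DKO. All 3 treated libraries of each genotype were below the untreated ones. The NTC difference was −0.21 (SE 0.03, adjusted p 0.00321) and held in every alternative and without any single library. Rps9 was also lower, by −0.13 (SE 0.04, adjusted p 0.0491), lost without untreated NTC replicate 1, 2 or 3, treated NTC replicate 1, 2 or 3, untreated DKO replicate 1, 2 or 3, or treated DKO replicate 1 (−0.14 to −0.13). Rps3 had 0.01 and was not called.

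Around the mRNA exit and platform, 2 of 5 genes were lower (12.1% of all genes called). Rpsa, a protein of the platform also described as a laminin receptor precursor, was at 2554, 2516 and 2536 TPM in untreated NTC cells, 2234, 2174 and 2234 in treated NTC, 2488, 2418 and 2417 in untreated DKO and 2274, 2346 and 2119 in treated DKO. Untreated and treated libraries were separated in both genotypes. The difference in NTC cells was −0.20 (SE 0.04, adjusted p 0.0101) and it too held in every alternative and without any single library. Rps26, which contacts mRNA upstream of the start codon, was at 1549, 1651 and 1627 TPM in untreated NTC cells and 1413, 1336 and 1228 in treated NTC. It changed by −0.28 (SE 0.06, adjusted p 0.0172), a call lost without untreated NTC replicate 2 or 3, or treated NTC replicate 2 or 3 (−0.33 to −0.23).

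Near the decoding site and the head, 3 of 4 genes were lower (12.1% of all genes called). Rps16, whose tail reaches toward the P-site tRNA, was at 354, 532 and 454 TPM in untreated NTC cells, 305, 223 and 125 in treated NTC, 575, 353 and 395 in untreated DKO and 339, 404 and 299 in treated DKO. Treated NTC libraries were below the untreated ones but far apart from each other, and both DKO groups overlapped untreated NTC. The difference was −1.11 (SE 0.26, adjusted p 0.0217), the largest of any member, lost without untreated NTC replicate 2 or 3, or treated NTC replicate 2 or 3 (−1.40 to −0.76). Rps15 and Rps18, both in the head of the subunit, changed by −0.17 (SE 0.05, adjusted p 0.0442) and −0.14 (SE 0.03, adjusted p 0.0184). The Rps15 call was lost without untreated NTC replicate 1, 2 or 3, treated NTC replicate 2 or 3, untreated DKO replicate 1, 2 or 3, or treated DKO replicate 1 (−0.20 to −0.15) and that of Rps18 without untreated NTC replicate 3, or treated NTC replicate 2 or 3 (−0.15 to −0.13).

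In the beak, a lobe of the small subunit head, Rps12 was lower. Rps12 was at 1923, 2222 and 2164 TPM in untreated NTC cells, 1574, 1299 and 1462 in treated NTC, 2093, 1850.2 and 1837 in untreated DKO and 1889.9, 1820.0 and 1569 in treated DKO. The treated NTC libraries were all below every untreated NTC library, and in DKO cells treated and untreated libraries overlapped. The NTC difference of −0.54 (SE 0.08, adjusted p 0.00227) held in every alternative and without any single library. With Rps12-ps3 added it was −0.18, lower in 3 of 3 treated libraries. Rps27a, made as a fusion with ubiquitin, was at 1877, 1761 and 1768 TPM in untreated NTC cells and 1835, 1974 and 1864 in treated NTC and was not called (0.07 (SE 0.04, adjusted p 0.270)).

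Rps6, the small subunit protein phosphorylated by S6 kinases, was the member with the highest difference. Rps6 was at 68.3, 83.2 and 76.8 TPM in untreated NTC cells, 106, 107 and 99.4 in treated NTC, 83.3, 71.5 and 71.7 in untreated DKO and 91.9, 73.0 and 92.7 in treated DKO. The 3 treated NTC libraries were the highest of the 12. The difference with IFNγ in NTC cells was 0.45 (SE 0.09, adjusted p 0.0139), lost without treated NTC replicate 2 (0.37 to 0.51). The replicate block with GC content and length trends removed also lost it. Of the 11 Diamond-Blackfan anaemia genes, 2 were higher (Rpl5 and Rpl35a) and 2 lower (Rps19 and Rps26), where 12.1% of all genes were called. Lower as well were Rps29 and Rpl29, with differences of −0.42 (Rps29) and −0.14 (Rpl29). The Rpl29 call was lost without untreated NTC replicate 1, 2 or 3, treated NTC replicate 2 or 3, untreated DKO replicate 2 or 3, or treated DKO replicate 1 (−0.18 to −0.12) and the Rps29 call without untreated NTC replicate 1, 2 or 3, or treated NTC replicate 2 or 3 (−0.57 to −0.29).

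With IFNγ in DKO cells, 1 member was called, lower, where 0.780% of all genes were called (79 higher and 12 lower), and 25 members had an unadjusted p under 0.05 (1119 of all 11663 genes). The median difference was −0.09, against 0.01 for all genes, and 72 of 77 members were below 0. That direction held under the 4 other scales (medians from −0.11 to −0.08, all genes −0.01 to 0.01), and the median was −0.00 on the scale set on the members (all genes 0.09). The lower gene was Rps19, the first gene linked to Diamond-Blackfan anaemia, at 2043, 1903 and 2007 TPM in untreated NTC cells, 1844, 1781 and 1848 in treated NTC, 2079, 2145 and 2075 in untreated DKO and 1899, 1855 and 1809 in treated DKO. All treated DKO libraries were below the untreated ones. The difference in DKO cells was −0.18 (SE 0.04, adjusted p 0.0347). It was not called with the replicate block, with all genes kept, in a fit of the DKO libraries alone, with GC content and length trends removed and on the scale set on the members. Rps19 was also not called without untreated NTC replicate 3, treated NTC replicate 1 or 3, untreated DKO replicate 1, 2 or 3, or treated DKO replicate 1, 2 or 3 (−0.20 to −0.16). In NTC cells its difference was −0.12 (SE 0.04, adjusted p 0.0468), which turned to 0.02 with GC content and length trends removed and was not called without untreated NTC replicate 1, 2 or 3, treated NTC replicate 1, 2 or 3, untreated DKO replicate 1, 2 or 3, or treated DKO replicate 1 (−0.15 to −0.10). The count of members was 0 without untreated NTC replicate 3, treated NTC replicate 1 or 3, any untreated DKO library, or treated DKO replicate 1 or 3, and 2 without untreated NTC replicate 2. The count was 3, with Rps19 among them, with the same total of the other genes or upper-quartile scaling.

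Of the net change of −6007 TPM in DKO cells, Rplp1 gave −376 TPM, Rps2 −274 TPM, Rps19 −245 TPM, Rpsa −195 TPM and Rpl32 −189.7 TPM, with 72 members lower and 5 higher in mean TPM. In NTC cells 43 were lower and 34 higher, led by Rplp1, Rps12 (−658 TPM), Rpl36 (−472 TPM), Rps2 (−395 TPM) and Rpl8 (−372 TPM), against Rpl39 (251 TPM) and Rps24 (214 TPM). With the copies added, Rps12 gave −337 TPM in NTC cells, after Rpl36, Rps2 and Rpl8. In DKO cells Rpl12 and Rps12 then gave −270 and −234 TPM. Whether the genotypes differed, in comparisons that share their libraries with those above, was tested as an interaction, the IFNγ difference in DKO minus that in NTC cells. limma called 0 of the 77 members, where 0.0343% of all genes were called (4), and 17 members had an unadjusted p under 0.05 (1340 of all 11663 genes). The largest values were 0.79 (SE 0.37, adjusted p 0.437) for Rps16, −0.53 (SE 0.11, adjusted p 0.257) for Rpl5 and 0.41 (SE 0.12, adjusted p 0.364) for Rps12, which was 0.05 with Rps12-ps3 added. The members' median was −0.05 as deposited, against −0.01 for all genes, and −0.01 with the same listed total, against 0.03.

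DKO against NTC, untreated, 4 members were higher and 11 lower, 15 of 77, where 36.4% of all genes were called (1982 higher and 2265 lower). The median difference was −0.05 as deposited (all genes −0.01) and −0.04 with median-ratio scaling (all genes 0), but 0.01 with the same listed total, 0.00 with the same total of the other genes and −0.00 with upper-quartile scaling, where all genes had 0.04, 0.04 and 0.03. Members minus all genes was thus −0.04 as deposited and −0.04 to −0.03 on the other scales. The split was 7 higher and 8 lower with the same listed total or the same total of the other genes, 4 and 11 with median-ratio scaling, 6 and 8 with upper-quartile scaling and 8 and 6 on the scale set on the members. On the 4 other scales 36.6% to 37.5% of all genes were called. The higher share of all called genes was 46.7% as deposited and 60.6% with the same listed total. With the same total of the other genes it was 60.2%, with median-ratio scaling 48.6% and with upper-quartile scaling 58.1%. By subunit the members' split was 4 and 6 for the large and 0 and 5 for the small subunit as deposited. This became 6 and 5, and 1 and 3, with the same listed total. The small subunit count was 3 without untreated NTC replicate 1 or untreated DKO replicate 3. Libraries did not overlap for 32 members, which was not counted over all genes. limma gave an unadjusted p under 0.05 for 22 members and 5271 of all 11663 genes. Under all 5 scales 4 members were higher (Rpl27, Rpl31, Rpl32 and Rpl5) and 8 lower (Rpl3, Rpl30, Rpl37, Rpl4, Rpl8, Rps21, Rps23 and Rps3a).

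Around the peptidyl transferase centre 3 of 4 genes were lower in untreated DKO cells (36.4% of all genes called). Rpl3, which folds the centre's ribosomal RNA, was at 1909.5, 1784 and 1839 TPM in untreated NTC cells, 1782, 1805 and 1840.0 in treated NTC, 1516, 1529.7 and 1518 in untreated DKO and 1519, 1471 and 1507 in treated DKO. Rpl4, whose extension lines the tunnel, was at 2092, 2007 and 2048 TPM in untreated NTC cells, 2063, 2143 and 2189.7 in treated NTC, 1697, 1727 and 1727 in untreated DKO and 1718, 1649 and 1737 in treated DKO. For both genes all 6 DKO libraries were below all 6 NTC libraries, and neither was called with IFNγ in either genotype. The untreated differences were −0.28 (SE 0.03, adjusted p 2.96e-05) for Rpl3, −0.25 (SE 0.03, adjusted p 8.80e-05) for Rpl4 and −0.27 (SE 0.05, adjusted p 0.00135) for Rpl8. These 3 calls held in every alternative and without any single library. With IFNγ, Rpl3 and Rpl4 were again lower, by −0.27 (SE 0.03, adjusted p 3.18e-05) and −0.33 (SE 0.03, adjusted p 9.39e-06), while Rpl8 had −0.10 and was not called.

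Of the small subunit genes, 5 of 31 (16.1%) were lower in untreated DKO cells, where 36.4% of all genes were called in either direction. Rps21, on the solvent side next to Rpsa, was at 1129, 1109 and 1199 TPM in untreated NTC cells, 1120.3, 1062 and 1059 in treated NTC, 922, 874 and 909 in untreated DKO and 836, 826 and 767 in treated DKO. All DKO values were under all NTC values. The difference was −0.34 (SE 0.04, adjusted p 4.89e-05) untreated and −0.42 (SE 0.04, adjusted p 8.36e-06) with IFNγ. Rps23, with a loop in the decoding centre, was at 507, 482 and 469 TPM in untreated NTC cells, 464, 528 and 499 in treated NTC, 450.4, 399.9 and 394 in untreated DKO and 367, 368 and 399.8 in treated DKO. DKO libraries were below NTC libraries of the same treatment, and its differences were −0.23 (SE 0.06, adjusted p 0.00884) and −0.39 (SE 0.06, adjusted p 0.000188). Rps3a, near the mRNA exit, was at 2991, 2828 and 2893 TPM in untreated NTC cells, 2833, 2944 and 2916 in treated NTC, 2379.8, 2575 and 2506 in untreated DKO and 2325, 2167 and 2403 in treated DKO. Its differences were −0.22 (SE 0.04, adjusted p 0.00134) and −0.34 (SE 0.04, adjusted p 5.24e-05), and its DKO values were again all under its NTC values. All of these held without any single library, and only the untreated call of Rps23 was lost in an alternative, the scale set on the members.

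Among the higher genes in untreated DKO cells was Rpl31, at the tunnel rim, at 131, 139 and 139 TPM in untreated NTC cells, 145, 172 and 156 in treated NTC, 177, 153 and 170.5 in untreated DKO and 156, 154 and 148 in treated DKO. Untreated DKO libraries were all above untreated NTC ones, and the treated groups overlapped. The difference was 0.29 (SE 0.06, adjusted p 0.00286). Rpl5 was higher by 0.32 (SE 0.08, adjusted p 0.00713) and Rpl32 by 0.14 (SE 0.04, adjusted p 0.00886), and with Rpl31 both held in every alternative and without any single library. Rpl32 was at 3566, 3361 and 3486 TPM in untreated NTC cells and 3701, 3912 and 3876 in untreated DKO. Rpl27, of the solvent side of the large subunit, was at 119.8, 119 and 109 TPM in untreated NTC cells, 107, 107 and 85.3 in treated NTC, 167, 131 and 130.4 in untreated DKO and 136, 155 and 137 in treated DKO. All DKO libraries were above all NTC libraries, by 0.29 (SE 0.10, adjusted p 0.0389) untreated and 0.52 (SE 0.10, adjusted p 0.00117) with IFNγ. With Rpl27-ps3 added the differences were 0.03 and 0.10 and neither was called. The untreated call was also lost with no filter on low values and without untreated NTC replicate 1, 2 or 3, or untreated DKO replicate 1 (0.17 to 0.35). Rpl13a was lower by −0.13 (SE 0.04, adjusted p 0.0125) as deposited, a call lost on 3 of the 4 other scales (−0.12 to −0.08) and without untreated DKO replicate 3 (−0.14 to −0.12).

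DKO against NTC with IFNγ, 4 members were higher and 32 lower, 36 of 77, where 43.3% of all genes were called (2271 higher and 2782 lower). The median difference was −0.09 as deposited (all genes −0.01), −0.07 with median-ratio scaling (all genes 0.00) and −0.04 with upper-quartile scaling (all genes 0.03), but −0.00 with the same listed total or the same total of the other genes (all genes 0.07). Members minus all genes was −0.08 as deposited and −0.07 on each of the 4 other scales. The split of 4 and 32 became 12 and 17 with the same listed total, 11 and 18 with the same total of the other genes, 4 and 27 with median-ratio scaling, 4 and 21 with upper-quartile scaling and 16 and 16 on the scale set on the members. By subunit it was 2 and 18 for the large and 2 and 14 for the small subunit, against 4 and 9, and 8 and 8, with the same listed total. The 4 higher became 7 with treated NTC replicate 1 left out, 2 with treated DKO replicate 1 left out, and 1 with replicate 2 of either treated genotype left out. Libraries did not overlap for 37 members, again not counted over all genes. An unadjusted limma p under 0.05 was found for 40 members and 5918 of all 11663 genes. Under all 5 scales 4 members were higher (Rpl10, Rpl27, Rps12 and Rps16) and 17 lower, and 44 were called under at least 1 scale.

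Lower genes in treated DKO cells came from both subunits. Rpl30, which binds kinked RNA and in yeast blocks splicing of its own transcript, was at 1776, 1569 and 1701 TPM in untreated NTC cells, 1786, 1821 and 1809 in treated NTC, 1359.5, 1459 and 1482 in untreated DKO and 1380.3, 1288 and 1454 in treated DKO. DKO libraries were below NTC libraries of the same treatment, by −0.23 (SE 0.05, adjusted p 0.00420) untreated and −0.40 (SE 0.05, adjusted p 6.51e-05) with IFNγ. Rpl13, a large subunit protein with variants in a skeletal dysplasia, was at 630.1, 564 and 624 TPM in untreated NTC cells, 647, 707 and 669 in treated NTC, 589, 621 and 604 in untreated DKO and 521, 512 and 542 in treated DKO. The treated groups were separated and the untreated groups overlapped. Its difference with IFNγ was −0.36 (SE 0.05, adjusted p 6.16e-05). Rps27a was at 1835, 1974 and 1864 TPM in treated NTC cells and 1612, 1503 and 1626 in treated DKO, with −0.26 (SE 0.04, adjusted p 0.000269), and Rpl35a was at 1266, 1332 and 1324 TPM in treated NTC cells and 1099, 999 and 1127 in treated DKO, with −0.28 (SE 0.05, adjusted p 0.000564). These held without any single library and in every alternative. Rps6 was lower by −0.28 (SE 0.09, adjusted p 0.0268), which was lost on 3 of the 4 other scales (−0.26 to −0.19) and without treated NTC replicate 1 or 2, or treated DKO replicate 2 (−0.34 to −0.17). At the tunnel rim 4 of 8 genes were lower, where 43.3% of all genes were called (Rpl17, Rpl22, Rpl23a and Rpl39), from −0.24 (Rpl17) to −0.14 (Rpl23a). The Rpl22 call was kept on 1 of the 4 other scales and lost without treated NTC replicate 2 or 3, or treated DKO replicate 2 (−0.23 to −0.11). Rpl23a was called on 1 of the 4 other scales, and Rpl39 only as deposited and not without untreated NTC replicate 3, treated NTC replicate 2 or 3, untreated DKO replicate 2, or treated DKO replicate 2 (−0.22 to −0.10).

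The 4 higher genes with IFNγ were Rps16, Rpl27, Rpl10 and Rps12, of which 3 are among the 8 with listed copies. Rpl10 was higher by 0.44 (SE 0.14, adjusted p 0.0185), and with Rpl10-ps3 added the difference reversed to −0.14, lower in 3 of 3 treated DKO libraries. Rps12 was higher by 0.28 (SE 0.08, adjusted p 0.0149), with overlapping libraries, and −0.03 with its copy. Rps16 was higher by 0.75 (SE 0.26, adjusted p 0.0342), also overlapping, and lost without treated NTC replicate 2 or 3, or treated DKO replicate 1 or 2 (0.40 to 1.04). The Rpl10 call was lost without treated NTC replicate 1 or 2, or treated DKO replicate 2 (0.34 to 0.60) and the Rps12 call without treated NTC replicate 2, or treated DKO replicate 1 or 2 (0.21 to 0.36).

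With the copies added throughout, the calls (higher and lower) were 5 and 19 with IFNγ in NTC (12.2% of all genes called), 0 and 1 with IFNγ in DKO (0.772%), 3 and 12 DKO against NTC untreated (36.4%), and 1 and 35 with IFNγ (43.3%). The summed level then changed by −3.98% with IFNγ in NTC and −5.68% in DKO cells, and DKO against NTC by −4.31% untreated and −6.01% with IFNγ, all without overlap. As a share of the listed total the genotype differences were −0.898% and −0.172%, with overlap. Rps27 and Gm9846 together, at a mean of 1716 TPM, were lower in DKO cells by −0.15 untreated and −0.34 with IFNγ. The pairs of Rpl11, Rpl27a and Rps13 differed by −0.09 to 0.04 with IFNγ in NTC cells.

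Base composition moved with the IFNγ response of NTC cells over the whole table. Across the 77 members, which share libraries and are not independent, the Spearman correlation of transcript GC content with the difference was −0.488 for IFNγ in NTC cells and −0.146 in DKO cells, against −0.609 and −0.181 across 11563 genes. It was 0.494 for the interaction (all genes 0.526), 0.0140 for DKO against NTC untreated (0.0629) and 0.481 with IFNγ (0.358). The 15 members with GC content above 55.1% had a median difference of −0.12 with IFNγ in NTC cells (all genes there −0.13), the 35 with 50.4% to 55.1% −0.08 (all genes −0.01), the 24 with 45.7% to 50.4% 0.05 (all genes 0.07) and the 3 below these 0.04 (all genes 0.13). In DKO cells the members' medians in these 4 classes ranged from −0.14 to −0.08 (all genes −0.02 to 0.03). With trends on GC content and length removed, the calls with IFNγ in NTC cells were 2 higher and 15 lower (4.38% of all genes called), in DKO cells 0 and 4 (1.11%), and DKO against NTC 4 and 15 untreated (42.6%) and 7 and 27 with IFNγ (42.9%). What part GC content has in these results was not tested.

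**Figure D5:**
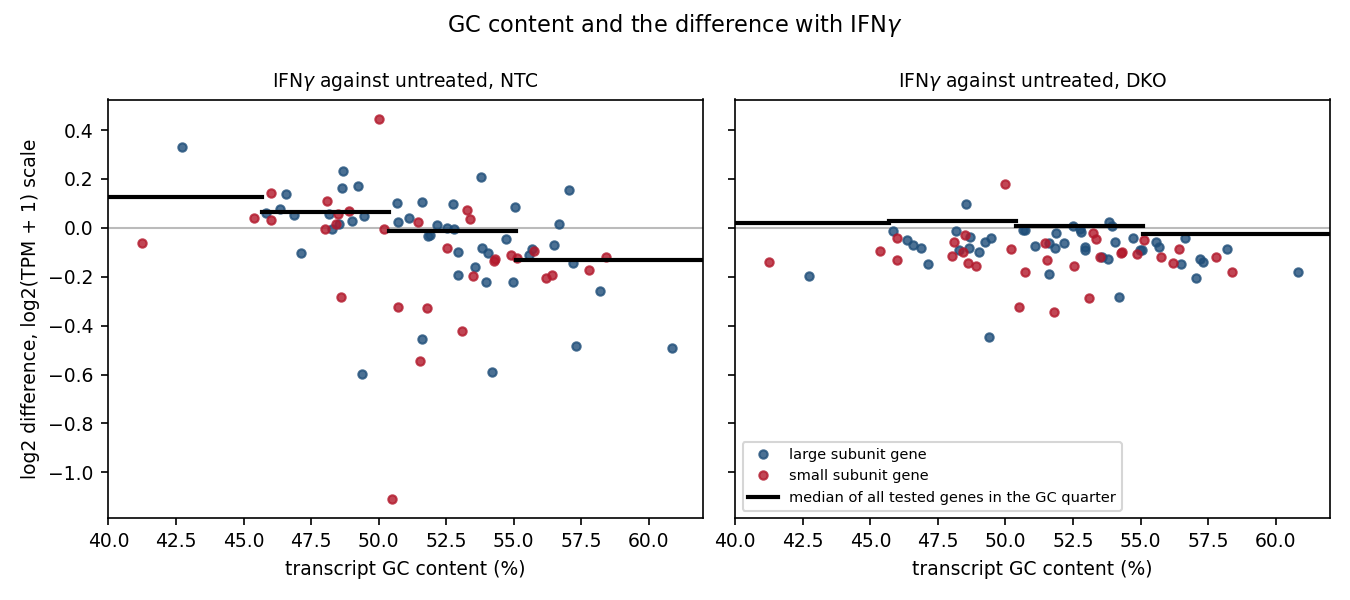
Transcript GC content (%) against the log2 difference with IFNγ for each member (points) in NTC and DKO cells, with black lines at the median of all tested genes in each of 4 equal classes of GC content. In NTC cells the members' differences fell with GC content (Spearman −0.488), and in DKO cells less so (−0.146).

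Members shared features that the symbol rule did not use. Their transcripts had a median length of 827 bases and 51.9% GC, against 2867 bases and 50.4% for tested genes, and 71 of 77 were 1809 bases or shorter. A small nucleolar RNA lies inside 30 of the 77 genes. Of these 30, 2 were higher and 7 lower with IFNγ in NTC cells, and of the other 47, 2 and 12 (12.1% of all genes were called). DKO against NTC these were 2 and 7, and 2 and 4, untreated (36.4% of all genes), and 3 and 15, and 1 and 17, with IFNγ (43.3%). The members' median SD between replicates on the log2 scale was 0.0449 in untreated NTC, 0.050 in treated NTC, 0.0402 in untreated DKO and 0.0759 in treated DKO. For all tested genes it was 0.0715, 0.0789, 0.0690 and 0.0934. Members had a median level of 1409 TPM and were not compared with other genes of similar level. The lower SD is thus not shown to be particular to the family. Mitochondrially encoded genes took 6.86% (treated DKO replicate 2) to 9.0% (treated NTC replicate 2) of the listed total. The 10 most abundant genes took 9.31% to 11.1% and the 23 listed genes of the family with -ps in their symbol 0.516% to 0.611%, which leaves out pseudogenes named otherwise, such as Gm10275 and Gm7536. In treated libraries the share of the 10 most abundant genes was 10.88%, 11.12% and 10.97% in NTC and 10.18%, 9.31% and 10.57% in DKO cells, without overlap, and its part in the results above was not tested.

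Ribosomal proteins whose symbols fall outside the rule include Fau, Gnb2l1 (Rack1) and Rpl36al. Fau, a fusion with a ubiquitin-like protein, was at 181, 152 and 168 TPM in untreated NTC cells, 145, 163 and 209 in treated NTC, 169, 141 and 152 in untreated DKO and 140.0, 134 and 114 in treated DKO. Treated DKO libraries were the lowest. It was lower in DKO cells with IFNγ by −0.40 (SE 0.12, adjusted p 0.0145), lost without treated NTC replicate 3, or treated DKO replicate 3 (−0.51 to −0.25). Gnb2l1, a scaffold on the small subunit head, was lower in untreated DKO cells by −0.12 (SE 0.04, adjusted p 0.0221) as deposited, a call kept on 1 of the 4 other scales and lost without untreated NTC replicate 1 or 3, or untreated DKO replicate 2 or 3 (−0.14 to −0.11). Rpl36al was higher with IFNγ in NTC cells by 0.18 (SE 0.05, adjusted p 0.0253), lost with GC content and length trends removed and without untreated NTC replicate 2 or 3, or treated NTC replicate 2 or 3 (0.16 to 0.20).

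Paralogs were few: of 6 listed, 3 passed the filter, and all 3 were called DKO against NTC with either treatment, where 36.4% (untreated) and 43.3% (with IFNγ) of all genes were called. Rpl22l1, a paralog of Rpl22, was at 460.4, 416 and 445 TPM in untreated NTC cells, 501, 536 and 508 in treated NTC, 250.2, 281 and 268 in untreated DKO and 256, 219 and 297 in treated DKO. All DKO libraries were below all NTC libraries, by −0.72 (SE 0.08, adjusted p 2.31e-05) untreated and −1.01 (SE 0.08, adjusted p 1.25e-06) with IFNγ. Rps27l, a p53-responsive paralog of Rps27, was at 518, 532 and 512 TPM in untreated NTC cells, 590.1, 625 and 609 in treated NTC, 659.8, 684 and 701 in untreated DKO and 696, 653 and 724 in treated DKO. DKO libraries were above NTC libraries of the same treatment, by 0.39 (SE 0.04, adjusted p 1.34e-05) and 0.18 (SE 0.04, adjusted p 0.00356). Rpl7l1, a paralog of Rpl7, was higher by 0.26 (SE 0.04, adjusted p 0.000359) and 0.17 (SE 0.04, adjusted p 0.00614). These 6 calls held in every alternative and without any single library. In NTC cells, where 12.1% of all genes were called, IFNγ gave 1 call among the 3, Rps27l, at 0.22 (SE 0.04, adjusted p 0.00926), lost with GC content and length trends removed, and 2 of 3 without treated DKO replicate 2 or 3.

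Of 14 other 5′ TOP genes, DKO against NTC, 0 were higher and 8 lower untreated (57.1% called, against 36.4% of all genes) and 0 and 9 with IFNγ (64.3% against 43.3%). Medians were −0.14 and −0.16 as deposited, with all 14 below 0 in both. With the same listed total the split was 0 and 5 untreated and 1 and 6 with IFNγ (medians −0.09 and −0.07). The untreated count was 4 without untreated NTC replicate 1 or untreated DKO replicate 1. Eif3h and Eif3e, subunits of initiation factor eIF3, and Pabpc1, the poly(A)-binding protein, were lower untreated by −0.26, −0.24 and −0.25. Eif3e (−0.47), the splicing factor Hnrnpa1 (−0.36) and nucleophosmin Npm1 (−0.35) were lower with IFNγ. The Eif3e call untreated was lost without untreated NTC replicate 1, or untreated DKO replicate 1 (−0.28 to −0.19). In treated NTC cells 2 were higher (Hnrnpa1 and Eif3e) and 1 lower (Eef2), 3 in all (21.4%, against 12.1% of all genes, and 2 and 2 with the same listed total or the same total of the other genes). The count of 3 was 1 without untreated NTC replicate 2, 0 without untreated NTC replicate 3, treated NTC replicate 2 or 3, and 5 without treated DKO replicate 2.

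Of 26 ribosome biogenesis genes, DKO against NTC, 8 were higher and 1 lower untreated (34.6% called, against 36.4% of all genes), and 10 and 1 with IFNγ (42.3% against 43.3%). Medians were 0.07 and 0.05, with 20 and 14 of the 26 above 0. With the same listed total it was 10 and 0, and 11 and 1. The untreated count was 5 without untreated NTC replicate 2 or untreated DKO replicate 1. Nop2, an rRNA methyltransferase, was at 51.2, 52.9 and 52.9 TPM in untreated NTC cells, 52.1, 47.0 and 48.6 in treated NTC, 76.3, 70.6 and 74.8 in untreated DKO and 73.5, 71.8 and 74.1 in treated DKO. All DKO libraries were above all NTC libraries, by 0.49 (SE 0.05, adjusted p 4.79e-06) and 0.56 (SE 0.05, adjusted p 1.24e-06). Polr1a, the largest subunit of RNA polymerase I, was higher by 0.46 (SE 0.04, adjusted p 2.91e-06) and 0.45 (SE 0.04, adjusted p 3.08e-06), and Nolc1, a nucleolar chaperone, by 0.38 and 0.43. These calls held in every alternative and without any single library. With IFNγ in NTC cells 2 were higher and 0 lower as deposited (7.69%, against 12.1% of all genes), 0 and 1 with the same listed total, median-ratio or upper-quartile scaling, and 0 and 2 with the same total of the other genes. That count was 0 without untreated NTC replicate 2 or 3, treated NTC replicate 2 or 3, any untreated DKO library or treated DKO replicate 1, 1 without untreated NTC replicate 1, and 4 without treated DKO replicate 2 or 3.

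Among 15 tested regulators of ribosomal protein synthesis, the DKO against NTC split was 2 higher and 2 lower untreated (26.7% called, against 36.4% of all genes) and 1 and 2 with IFNγ (20.0% against 43.3%). The latter was 1 and 1 with the same listed total or the same total of the other genes. Eif4ebp1, which mTOR phosphorylates to release eIF4E, was at 499, 517 and 497 TPM in untreated NTC cells, 427, 386 and 375 in treated NTC, 316, 294 and 297 in untreated DKO and 258, 349.8 and 269 in treated DKO. DKO libraries were below NTC libraries of the same treatment, by −0.74 (SE 0.09, adjusted p 2.96e-05) and −0.45 (SE 0.09, adjusted p 0.00123), in every alternative and without any single library. Its paralog Eif4ebp2 was higher by 0.19 and 0.13, the latter lost without treated NTC replicate 2, or treated DKO replicate 2 or 3 (0.12 to 0.15). Larp1, which binds 5′ TOP mRNAs, was lower untreated by −0.21 (SE 0.04, adjusted p 0.00268), and Rheb, which activates mTOR, with IFNγ by −0.20 (SE 0.06, adjusted p 0.0112), the latter kept on 2 of the 4 other scales. Of the 15, Eif4ebp1 alone (6.67%, against 12.1% of all genes) was lower with IFNγ in NTC cells (−0.35 (SE 0.09, adjusted p 0.0260)). It was not called without untreated NTC replicate 1, 2 or 3, or treated NTC replicate 2 or 3 (−0.41 to −0.31), and 2 regulators were called without treated DKO replicate 2 or 3.

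The 75 mitochondrial ribosomal protein genes, which build a separate ribosome, had 7 higher and 15 lower DKO against NTC untreated (29.3% called, against 36.4% of all genes) and 8 and 20 with IFNγ (37.3% against 43.3%), with medians of −0.01 in both. With the same listed total this became 12 and 10, and 21 and 12, with medians of 0.04 and 0.08. With the same total of the other genes it was 11 and 10, and 21 and 12, with median-ratio scaling 7 and 13, and 10 and 18, and with upper-quartile scaling 9 and 10, and 16 and 16. The largest differences with IFNγ were in Mrps12 (0.65), Mrpl34 (0.53) and Mrpl1 (−0.42), of which the Mrpl34 call was lost without treated NTC replicate 3, or treated DKO replicate 1 or 2 (0.31 to 0.67). With IFNγ in NTC cells 6 were higher and 5 lower as deposited (14.7%, against 12.1% of all genes), 3 and 6 with the same listed total, 5 and 6 with median-ratio scaling, and 2 and 6 with the same total of the other genes or upper-quartile scaling. That count of 11 was 1 without untreated NTC replicate 2, treated NTC replicate 2 or treated NTC replicate 3, 0 without untreated NTC replicate 3, 7 without untreated DKO replicate 2, 6 without untreated DKO replicate 3 or treated DKO replicate 1, and 17 without treated DKO replicate 3. limma called 0 genes with IFNγ in DKO cells among the other 5′ TOP genes, biogenesis genes, regulators, paralogs, mitochondrial ribosomal proteins and ribosomal proteins outside the rule. At an unadjusted p under 0.05 these lists, of 14, 26, 15, 3, 75 and 4 tested genes, had 0, 0, 2, 0, 5 and 0 genes (1119 of all 11663). limma also called 0 of them in the interaction, where 4, 3, 4, 2, 10 and 1 had an unadjusted p under 0.05 (1340 of all 11663).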

How the data were processed

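RNA-seq of 12 B16-F10 libraries was analysed from the table the authors deposited, whose name says counts but whose values are transcripts-per-million (TPM). Per the study's methods, the authors aligned reads with RSEM 1.2.4, modified to call Bowtie, to a merged mouse transcriptome, and mapped unaligned reads with TopHat to mm10. TPM keeps no depth, so the depth of each single library is unknown beyond the approximate number of reads per sample that the paper states, and any scaling between them is not given in the sources used here.

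One limma 3.58.1 (R 4.3.3) fit with a mean per condition and a mean-variance trend was made on log2(TPM + 1) for the 11663 genes that reached 1 TPM in 3 or more libraries, with 5 contrasts, Benjamini-Hochberg adjustment over all of them and a threshold of 0.05. Alternatives were a replicate block, a pseudocount of 0.1 TPM, all genes kept, a fit of the compared libraries alone, 4 other library scales, removal of GC content and length trends, and each library left out. A scale set on the members, copies added to their member, and a wider window for the start run were added after seeing the data. Copies were found with BLAST+ 2.17.0 (95% identity over 80% of the coding sequence). GC content and length came from GENCODE M21 and promoters from RefSeq (GRCm38.p6). Tables and figures used Python 3.11.15, pandas 2.3.3 and matplotlib 3.10.9. Code for the fit was also tested on simulated data.

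Genes named were the edited genes, the 5 highest and 5 lowest members by mean, up to 5 called members per comparison and direction with the largest difference and no overlap (or the 3 largest differences where none was called), members of fixed role lists, and up to 3 called genes per pathway list. Other called members were named after their values were seen. Members and lists were chosen with earlier results of these data known.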

Additional observations from a re-analysis of the deposited data

Results flagged for a closer look

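Rpl13 was at 630.1, 564 and 624 TPM in untreated NTC cells, 647, 707 and 669 in treated NTC, 589, 621 and 604 in untreated DKO and 521, 512 and 542 in treated DKO. Every treated NTC library was above every untreated one, and every treated DKO library was below every untreated one. The IFNγ difference in DKO minus that in NTC cells was −0.36 (SE 0.07), with a limma adjusted p of 0.123, so this difference did not pass the threshold.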

How the results depend on the processing

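Counts of called members moved by over 1.5 times in the following settings, and the cause was not tested. With IFNγ in NTC cells 14 were called with no filter on low values (5.56% of all genes) and 14 with the replicate block and GC content and length trends removed (3.41%), against 12.1% of all genes as deposited. With IFNγ in DKO cells limma called 0 with no filter (0.527% of all genes), with the replicate block (0.643%) or on the scale set on the members (4.86%). As deposited, 25 had an unadjusted p under 0.05. It called 3 with the same total of the other genes (0.840%) or upper-quartile scaling (0.772%), and 4, without Rps19, with GC content and length trends removed (1.11%). The labels do not state whether libraries with the same replicate number belong together. Of 18 pairs with the same number, 4 had deviations correlated above 0.1, with a range of −0.179 to 0.182. With 3 libraries per condition these correlations cannot decide whether the libraries were paired. Leaving out 1 library gave 6 to 31 called members with IFNγ in NTC cells (319 to 2020 of all genes over the same fits). With IFNγ in DKO cells it gave 0 to 2 (68 to 109 of all genes), and 0 for the interaction (0 to 7). DKO against NTC it gave 11 to 19 untreated (3430 to 4477 of all genes) and 25 to 37 with IFNγ (4239 to 5110). The count over all genes thus also moved with single libraries.

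The members' median with IFNγ in NTC cells was −0.060 with the same listed total, −0.074 with the same total of the other genes, −0.047 with median-ratio and −0.057 with upper-quartile scaling, −0.051 with GC content and length trends removed (also with the replicate block), −0.0037 with copies added and 0.040 on the scale set on the members. In DKO cells it was −0.11 with upper-quartile scaling and −0.0021 on the scale set on the members. For the interaction it was −0.013 with the same listed total, −0.010 with the same total of the other genes, −0.014 with trends removed and −0.030 on the scale set on the members. DKO against NTC untreated it was 0.0053, 0.0035 and −0.0044 with the same listed total, the same total of the other genes and upper-quartile scaling, −0.029 with trends removed and 0.018 on the scale set on the members. With IFNγ it was −0.00090, −0.00030, −0.072 and −0.037 on the 4 other scales, −0.060 with trends removed and −0.0052 on the scale set on the members. Without 1 library medians were −0.052 to −0.0073, −0.097 to −0.082, −0.059 to −0.028, −0.060 to −0.042 and −0.095 to −0.062 in the same order of comparisons.

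The mean summed level in untreated NTC was 112721 TPM with the 23 genes named -ps added (other pseudogenes left out) and 118981 TPM with copies added. In treated NTC it was 99611 TPM with the same listed total, 99152 with the same total of the other genes, 102101 with median-ratio and 100531 with upper-quartile scaling, 108233 with -ps genes and 114243 with copies. In untreated DKO these were 105802, 106202, 104201, 105802, 107886 and 113847 TPM. In treated DKO the sum was 99918 TPM with the same listed total, 99502 with the same total of the other genes, 101891 with -ps genes and 107378 with copies. Called differences that reversed were Rpl10 (−0.14) and Rps12 (−0.030), DKO against NTC with IFNγ with copies added, and, with GC content and length trends removed, with or without the replicate block, Rpl7 (0.028) and Rps20 (0.026) in the same comparison and Rps19 (0.019) with IFNγ in NTC cells.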
